A study of Homo sapiens with 4 samples.

Results

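The genes described here separate the leiomyosarcoma cell lines SKN and SKUT1 from the lines RKN and SKLMS1. A gene was taken as a member when the lower of one pair of lines exceeded the higher of the other pair by 2 or more (4-fold) on log2(FPKM + 1), where FPKM counts fragments per kilobase of transcript, scaled to the mapped fragments of the library, and when FPKM was 1 or more in any line. Of the 13713 genes with FPKM 1 or more in any line, 126 met the rule, 78 higher in SKN and SKUT1 and 48 lower. These are 0.569% and 0.35% of the genes compared, and as the same values chose the members, their levels are a description and carry no test. The distance between the nearer values of the pairs on this scale is called the gap.

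Leiomyosarcoma is a cancer with features of smooth muscle. Each of the 4 lines was grown untreated in medium with 10% serum and gave 1 polyadenylated RNA library of single-end 75 bp reads. The labels give the name of the line and nothing else that would group SKN with SKUT1 or RKN with SKLMS1. The lines of a pair are different lines and not replicates of a condition, so no difference below has a replicate check. Split in the other ways, the same rule gave 152 genes for SKLMS1 and SKUT1 against RKN and SKN (118 higher, 34 lower) and 130 for SKLMS1 and SKN against RKN and SKUT1 (72 higher, 58 lower), so the split described here had the fewest genes of the 3.

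Several systems recur among the members. Cells of connective tissue secrete a matrix of collagens, laminins and elastic fibres. Latent TGF-beta binding proteins sit in its microfibrils, and some of them hold TGF-beta in store. Activins and bone morphogenetic proteins belong to the same ligand superfamily and are checked by secreted antagonists such as follistatin and gremlin. The ERK kinase cascade, driven by growth factor receptors, induces its own inhibitors of the Sprouty and dual-specificity phosphatase families. Interleukin 33 is an alarmin, a cytokine stored in the nucleus and released on cell damage, while CSRP2 is a LIM domain protein of smooth muscle.

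Promoter sequence from RefSeq (GRCh38.p14) is shown for 4 members as context. EMP1 and PRSS3 are the members with the widest gaps whose listed promoter holds the pattern TGANTCA. IL33 and CSRP2 stand for the 2 directions. Each window is the 250 bases before the start, 5′ to 3′ on the strand of the gene, and for IL33 and CSRP2 it is the first of the windows listed. Capitals mark TGANTCA, searched on both strands. This pattern takes in TGAGTCA, a core bound by AP-1 factors, and also sites with another base in the middle. EMP1 (chr12:13196476-13196725, plus strand) holds it from positions -175 and -48, counted from the start, and PRSS3 (chr9:33795311-33795560, plus strand) from -173. In the full windows of 300 bases, which reach 50 bases past the start, 4.55% of the 10616 promoters of kept genes held it. EMP1 and PRSS3 were picked for holding it, so they do not show how common it is among the members. PTX3, ESM1, LAMA4 and LTBP2, with wider gaps than PRSS3, have a listed window without it.
EMP1: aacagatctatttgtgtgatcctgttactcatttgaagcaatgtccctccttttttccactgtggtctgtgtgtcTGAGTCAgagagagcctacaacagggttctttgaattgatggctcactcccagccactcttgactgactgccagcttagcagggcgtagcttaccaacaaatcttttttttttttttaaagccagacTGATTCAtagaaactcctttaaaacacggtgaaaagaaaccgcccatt
PRSS3: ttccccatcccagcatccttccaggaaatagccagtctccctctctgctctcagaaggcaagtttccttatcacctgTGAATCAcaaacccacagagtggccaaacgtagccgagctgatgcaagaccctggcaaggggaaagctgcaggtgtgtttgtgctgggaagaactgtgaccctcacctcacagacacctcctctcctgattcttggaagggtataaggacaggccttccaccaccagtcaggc
IL33 (chr9:6214899-6215148, plus strand): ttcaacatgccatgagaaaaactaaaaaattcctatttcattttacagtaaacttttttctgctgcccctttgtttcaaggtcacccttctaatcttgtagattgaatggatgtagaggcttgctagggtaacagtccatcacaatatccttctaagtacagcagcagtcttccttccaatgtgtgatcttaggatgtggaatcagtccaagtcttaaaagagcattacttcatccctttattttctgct
CSRP2 (chr12:76879020-76879269, minus strand): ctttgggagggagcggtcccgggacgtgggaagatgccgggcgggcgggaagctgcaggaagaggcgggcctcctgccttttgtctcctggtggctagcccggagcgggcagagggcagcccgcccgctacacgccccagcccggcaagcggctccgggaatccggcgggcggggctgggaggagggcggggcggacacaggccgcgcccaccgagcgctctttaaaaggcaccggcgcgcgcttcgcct
A window is listed for 56 of the 78 higher genes (71.8%) and 17 of the 48 lower genes (35.4%), against 77.4% of all kept genes. With short RNAs left out, 17 of 26 lower genes (65.4%) have one. No share is given for the members, and no comparison of promoter composition is drawn.

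The libraries differed in depth in the same way as the pairs. The table gives no read totals, but the most frequent ratio of low values between lines gave a depth of 75.2% of RKN in SKN, 72.6% in SKUT1 and 91.3% in SKLMS1, so both SKN and SKUT1 were shallower than both RKN and SKLMS1. Column sums of FPKM were 538300 in SKN and 619584 in SKUT1, against 446954 in RKN and 494047 in SKLMS1. As deposited, the median difference of pair means over the kept genes was 0.02 on the log2 scale, and rescaling the columns to a common sum moved it to -0.25. Smooth muscle markers did not follow the pairs. Smooth muscle actin, ACTA2, was 1.37 in SKN and 1085 in SKUT1, against 84.7 in RKN and 127 in SKLMS1, and TAGLN was 5.82 in SKN and 3816 in SKUT1, against 45.5 and 531. CNN1 was 0.228 in SKN and 86.4 in SKUT1, against 2.45 in RKN and 29.6 in SKLMS1. DES and MYH11 were at most 1.15 in every line, so these 2 smooth muscle markers were close to absent. Of the epithelial markers EPCAM and CDH1 were at most 1.80 in every line, but the keratin genes KRT8 and KRT18, given with the members below, reached 268 and 283. The endothelial markers PECAM1, CDH5 and VWF were at most 0.293. The immune markers PTPRC and CD3E were at most 0.213 and CD14 at most 1.64.

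IL33, which stands for the higher genes, had an FPKM of 124 in SKN and 22.5 in SKUT1, against 0.0140 in RKN and 0.0306 in SKLMS1. The gap was 4.51, with SKN the higher line of its pair. Its receptor gene IL1RL1, which misses the rule, was 1.47 in SKN and 1.95 in SKUT1 and was listed at 0 in both RKN and SKLMS1. In the list of 17 kept genes of the interleukin 1 family and its receptors, IL33 was the only member. This is 5.88% of the list, against 0.569% higher members of all kept genes. Both SKN and SKUT1 lay above both other lines for 10 genes of the list (58.8%) and below for 1. Of all kept genes 17.1% lay above and 16.6% below. CSRP2, which stands for the lower genes, was 5.21 in SKN and 27.3 in SKUT1, against 155 in RKN and 158 in SKLMS1. RKN and SKLMS1 were nearly level for CSRP2, the gap was 2.46, and SKUT1 was 2.19 above SKN on the log2 scale.

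**Figure D1:**
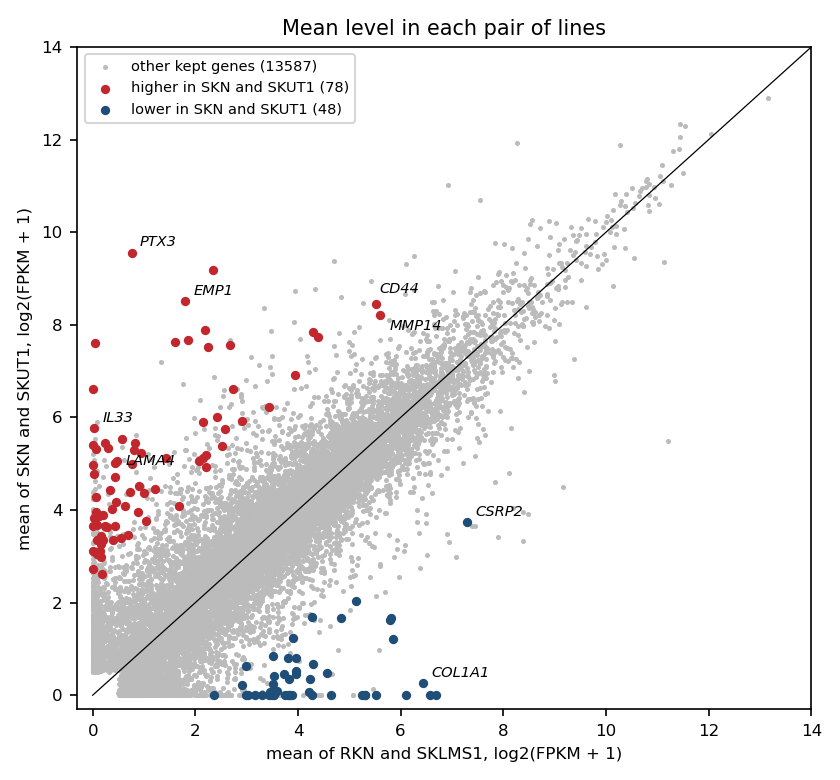
Mean level of each of the 13713 kept genes in SKN and SKUT1 (vertical axis) against RKN and SKLMS1 (horizontal axis), both on log2(FPKM + 1). The 78 higher genes (red) reach from near 0 up to the level of CD44 and MMP14 on the horizontal axis, and most of the 48 lower genes (blue) lie close to 0 on the vertical axis, with CSRP2 farther up.

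Among the higher genes that are not short RNAs, the 4 widest gaps were those of PTX3, EMP1, ESM1 and TRPV2. PTX3, a secreted pentraxin of innate immunity, was 185 in SKN and 3047 in SKUT1, against 0.0342 in RKN and 1.76 in SKLMS1. Its gap of 6.08 was the widest of any member that is not a short RNA. EMP1, an epithelial membrane protein, was 242 in SKN and 548 in SKUT1, against 6.70 in RKN and 0.587 in SKLMS1. ESM1, a proteoglycan secreted by endothelium, was 28.3 in SKN and 60.8 in SKUT1 and was listed at 0 in RKN and SKLMS1. The cation channel gene TRPV2 had the same form, 23.5 in SKN and 39.0 in SKUT1, against 0 listed in RKN and SKLMS1. An exact 0 in such a table can be a failed estimate, so no fold is given for these. Both lower lines were under an FPKM of 1 for 40 of the 78 higher genes, and 50 of the 78 had 10 or more in both SKN and SKUT1.

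**Figure D2:**
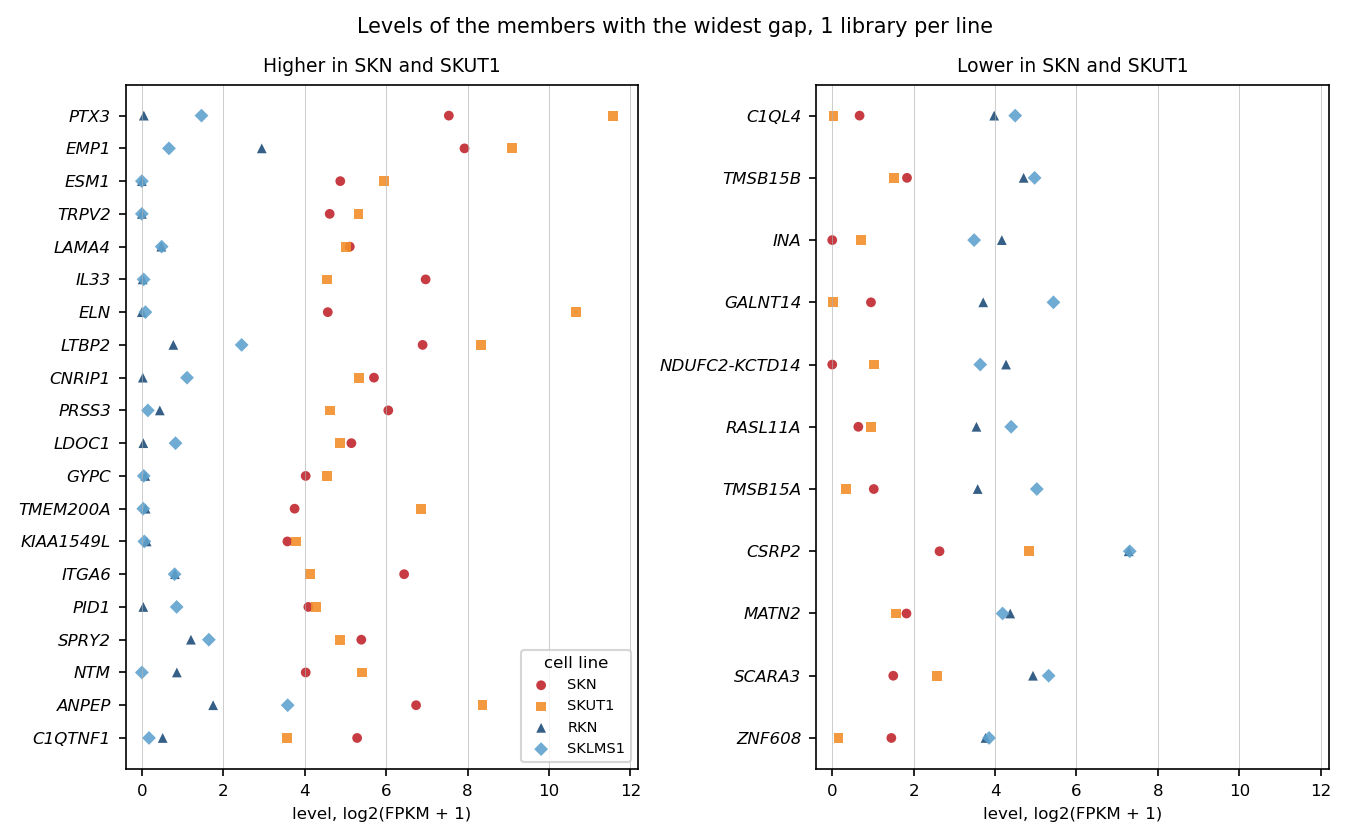
Levels, as log2(FPKM + 1), of the named members with the widest gaps among those with FPKM 10 or more in both lines of the higher pair, 20 higher in SKN and SKUT1 (left) and 11 of the lower genes (right); each point is 1 library. SKN and SKUT1 lie apart from each other for ELN and PTX3, while LAMA4 and MATN2 show pairs that nearly coincide.

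Matrix genes were among the lists with most members. Of 46 kept genes of the elastic fibre, microfibril and matricellular list, 5 were higher members (10.9%, against 0.569% of all kept genes) and 1 was lower. ELN, the elastin gene, was 22.7 in SKN and 1624 in SKUT1, against 0.0623 in SKLMS1 and a listed 0 in RKN. LTBP2, a microfibril protein of the latent TGF-beta binding family, was 118 in SKN and 323 in SKUT1, against 0.709 in RKN and 4.47 in SKLMS1. Its relative LTBP3 was 43.2 in SKN and 82.2 in SKUT1, against 5.02 in RKN and 8.46 in SKLMS1, and LTBP1, named after its values were seen, was 10.9 in SKN and 156 in SKUT1, against 0.142 in RKN and 1.71 in SKLMS1. All 3 were thus lowest in RKN and highest in SKUT1. FBN2, a fibrillin that builds microfibrils, was 8.03 in SKN and 10.5 in SKUT1, against 0.0141 in RKN and 0.0986 in SKLMS1. The median difference of pair means over this list was 2.32 on the log2 scale, and 0.02 over all kept genes.

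The lower member of that list, MATN2, encodes a matrilin, an adaptor of matrix filaments. It was 2.54 in SKN and 1.97 in SKUT1, against 19.7 in RKN and 17.2 in SKLMS1, so each pair was close to level and the gap was 2.36. Among 30 collagen genes the members went both ways. COL13A1, a collagen that spans the cell membrane, was 9.55 in SKN and 16.4 in SKUT1, against 1.20 in RKN and 0.897 in SKLMS1. COL9A2, a cartilage collagen chain, was 0.0150 in SKN and 0.389 in SKUT1, against 14.2 in RKN and 7.46 in SKLMS1. COL1A1 met the lower rule with 0.447 in SKN and a listed 0 in SKUT1, against 7.06 in RKN and 939 in SKLMS1, but as the 0 may be a failed estimate and SKLMS1 stood far above RKN, no direction is drawn for it. At a gap of 1 (2-fold) 5 collagen genes were higher, which included 3 chains of type VI collagen. COL6A1 was 408 in SKN and 977 in SKUT1, against 33.6 in RKN and 136 in SKLMS1. COL6A2 was 491 in SKN and 1035 in SKUT1, against 36.7 in RKN and 156 in SKLMS1, and COL6A3 was 81.7 in SKN and 437 in SKUT1, against 35.1 and 29.7.

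Basement membrane and its receptors were represented on the higher side. LAMA4, a laminin chain of vessels and muscle, was 33.5 in SKN and 31.2 in SKUT1, against 0.392 in RKN and 0.401 in SKLMS1. It was the gene with the tightest pairs among the widest gaps, with SKN and SKUT1 0.10 apart and RKN and SKLMS1 0.01 apart on the log2 scale. PXDN, a peroxidase that cross-links type IV collagen, was 71.9 in SKN and 199.7 in SKUT1, against 12.4 in RKN and 16.8 in SKLMS1. Of 27 kept basement membrane genes these were the 2 members (7.41%, against 0.569% higher members of all kept genes). ITGA6, the integrin chain that binds laminins, was 86.0 in SKN and 16.5 in SKUT1, against 0.758 in RKN and 0.746 in SKLMS1. ITGA2, a collagen-binding integrin chain, was 26.3 in SKN and 7.88 in SKUT1, against 0.0197 in RKN and 0.0774 in SKLMS1. Both integrin genes were higher in SKN than in SKUT1, the reverse of ELN and the latent TGF-beta binding proteins. ITGBL1, which the integrin list holds by its symbol although it encodes a secreted protein and no integrin chain, was 6.06 in SKN and 272 in SKUT1, against 0.413 in SKLMS1 and a listed 0 in RKN.

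Cell surface and proteolysis genes included CD44 and MMP14, the higher genes with the highest level in the weaker line of SKN and SKUT1. CD44, the hyaluronan receptor, was 343 in SKN and 357 in SKUT1, against 25.7 in RKN and 77.1 in SKLMS1. MMP14, a membrane-bound collagenase, was 299 in SKN and 292 in SKUT1, against 37.2 in RKN and 59.7 in SKLMS1. SKN and SKUT1 were within 0.06 of each other on the log2 scale for both genes. ANPEP, an aminopeptidase of the cell surface, was 106 in SKN and 330 in SKUT1, against 2.36 in RKN and 11.0 in SKLMS1. PRSS3, a trypsin, was 65.4 in SKN and 23.7 in SKUT1, against 0.357 and 0.108; its near relatives among the trypsin genes share sequence, so the assignment of its reads is uncertain. PRSS12, which encodes neurotrypsin, was 6.90 in SKN and 24.3 in SKUT1, against 0.0271 in RKN and 0.0223 in SKLMS1, and PAPPA, a protease of IGF-binding proteins, was 9.58 in SKN and 19.7 in SKUT1, against 0.316 in SKLMS1 and a listed 0 in RKN. ADAMTS6 entered narrowly, with 7.57 in SKN and 11.9 in SKUT1, against 0.00419 in RKN and 1.12 in SKLMS1.

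Complement and coagulation regulators held 4 higher members among 34 kept genes (11.8%) and no lower one. TFPI2, an inhibitor of serine proteases in the matrix, was 134 in SKN and 416 in SKUT1, against 0.212 in RKN and 16.3 in SKLMS1. CD59, which blocks the membrane attack complex, was 97.1 in SKN and 463 in SKUT1, against 19.7 in RKN and 20.05 in SKLMS1. F2R, the thrombin receptor, was 17.2 in SKN and 77.2 in SKUT1, against 0.345 in RKN and 1.75 in SKLMS1. These 3 were highest in SKUT1. C1QTNF1, a secreted relative of complement C1q, was 38.1 in SKN and 10.9 in SKUT1, against 0.425 in RKN and 0.129 in SKLMS1. At a gap of 1 the list added CD55 and PLAUR, the urokinase receptor gene, which was 77.1 in SKN and 72.8 in SKUT1, against 23.9 in RKN and 3.25 in SKLMS1.

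TGF-beta superfamily genes supplied 4 higher members of 57 kept (7.02%) and no lower one. The ligand gene INHBA, the beta A chain of activin, was 210.0 in SKN and 159.7 in SKUT1, against 21.4 in SKLMS1 and a listed 0 in RKN. FST, the activin antagonist follistatin, was 3.57 in SKN and 165 in SKUT1, against 0.0398 in SKLMS1 and a listed 0 in RKN. GREM1, the BMP antagonist gremlin, was 139.9 in SKN and 2389.8 in SKUT1, against 0.00795 in RKN and 24.6 in SKLMS1. The co-receptor gene ENG was 71.6 in SKN and 566 in SKUT1, against 0.109 in RKN and 10.8 in SKLMS1. For INHBA, GREM1 and ENG the order SKLMS1 above RKN was itself wide, at 3.41 to 4.67 on the log2 scale, and each of the 3 gaps was narrower than that. A list of guidance genes held RGMB, a BMP co-receptor, at 24.8 in SKN and 46.6 in SKUT1, against 2.76 in RKN and 4.26 in SKLMS1. At a gap of 1, TGFBR2 and SMURF2 were also higher, and ID1, a target of BMP signalling, was lower at 70.8 in SKN and 167 in SKUT1, against 445 in RKN and 593 in SKLMS1. TGFB2 was the other lower gene at that gap.

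**Figure D3:**
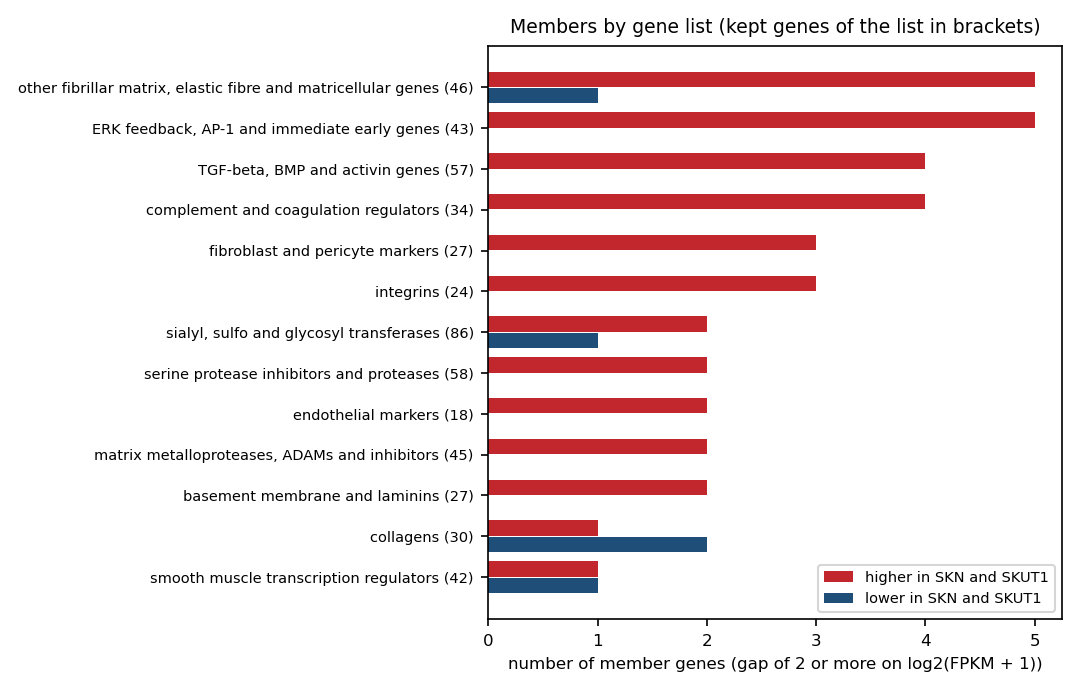
Number of members in 13 gene lists with 2 or more of them, higher (red) or lower (blue) in SKN and SKUT1; the kept genes of each list stand in brackets. The matrix list and the mixed list of ERK feedback, AP-1 and immediate early genes hold 5 higher members each. The collagen bar of 2 lower members includes COL1A1, for which no direction is drawn.

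The list of ERK feedback, AP-1 and immediate early genes, called the ERK feedback list here, matched the matrix list in number. It is mixed, so its 5 members are not all feedback genes of ERK signalling. Of 43 kept genes of the ERK feedback, AP-1 and immediate early list, 5 were higher members (11.6%), 8 were higher at a gap of 1 (2.3% of all kept genes), and none was lower at either gap (1.36% of all kept genes at a gap of 1). SPRY2, a Sprouty inhibitor of receptor signalling, was 40.9 in SKN and 28.1 in SKUT1, against 1.31 in RKN and 2.13 in SKLMS1. DUSP4, a phosphatase of ERK, was 23.9 in SKN and 10.7 in SKUT1, against 0.0765 in RKN and 1.25 in SKLMS1. The ETS factor gene ETV5 was 37.1 in SKN and 23.2 in SKUT1, against 3.27 in RKN and 4.06 in SKLMS1. MAFF, a small MAF factor, was 22.8 in SKN and 54.9 in SKUT1, against 3.19 and 4.06. PHLDA2, an imprinted growth regulator, was 74.1 in SKN and 73.9 in SKUT1, against 14.7 in RKN and 6.41 in SKLMS1. The first 3 of these were higher in SKN than in SKUT1. DUSP6, another ERK phosphatase, named after its values were seen, did not follow the pairs, at 39.8 in SKN and 2.56 in SKUT1, against 4.47 in RKN and 0.298 in SKLMS1.

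The lists of growth factor ligands, receptor tyrosine kinases and WNT pathway genes held 1 member each. FGF5, a ligand of FGF receptors, was 6.38 in SKN and 28.7 in SKUT1, against 0.154 in RKN and 0.0255 in SKLMS1. It was the 1 member among 33 ligand genes (3.03%, against 0.569% higher members of all kept genes). FGFR4 went the other way, with 0.754 in SKN and 0.0718 in SKUT1, against 21.1 in RKN and 9.87 in SKLMS1. It was the 1 member among 37 receptor tyrosine kinases (2.70%, against 0.35% lower members of all kept genes). The WNT receptor gene FZD8 was 28.8 in SKN and 13.7 in SKUT1, against 0.0397 in RKN and 1.62 in SKLMS1. Regulators of small GTPases were also among the higher genes. ARHGAP22 and ARHGAP24, which switch off Rac, were 29.7 and 5.54 in SKN and 12.9 and 14.9 in SKUT1, against 0.718 and 0.0267 in RKN and 1.34 and 0.293 in SKLMS1. CDC42EP2, an effector of CDC42, was 36.2 in SKN and 46.2 in SKUT1, against 8.12 in RKN and 2.64 in SKLMS1.

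Innate immune genes and nuclear factors were single entries. TLR4, the lipopolysaccharide receptor, was 6.29 in SKN and 34.9 in SKUT1, against 0.662 in SKLMS1 and a listed 0 in RKN, and CASP4, an intracellular lipopolysaccharide sensor, was 68.1 in SKN and 40.8 in SKUT1, against 4.10 in RKN and 5.98 in SKLMS1. TBX18, a T-box factor of smooth muscle and pericyte precursors, was 6.45 in SKN and 9.02 in SKUT1 and was listed at 0 in RKN and SKLMS1. FLI1, an ETS factor of endothelium and blood, was 14.6 in SKN and 9.11 in SKUT1, against 0.0201 in SKLMS1 and a listed 0 in RKN. ESM1 and FLI1 were the 2 members among 18 kept endothelial genes (11.1%, against 0.569% higher members of all kept genes). The defining endothelial markers were near 0 in all lines, as given above. HOXD-AS2, an antisense RNA of the HOXD cluster, was 16.1 in SKN and 13.2 in SKUT1, against 2.38 in RKN and a listed 0 in SKLMS1. Whether the quantification used strand is not given in the sources used here, so reads of an antisense RNA and its partner may not be separated.

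The other named higher genes had varied roles. KRT18, a keratin with many processed copies, was 283 in SKN and 184 in SKUT1, against 7.84 in RKN and 42.8 in SKLMS1. Its partner KRT8 did not follow the pairs, at 265 in SKN and 9.42 in SKUT1, against 1.99 in RKN and 268 in SKLMS1. CNRIP1, whose product binds the cannabinoid receptor, was 51.1 in SKN and 39.6 in SKUT1, against 0.0165 in RKN and 1.16 in SKLMS1. LDOC1, a gene derived from a retrotransposon, was 34.4 in SKN and 28.1 in SKUT1, against 0.0252 in RKN and 0.774 in SKLMS1. GYPC, glycophorin C of the red cell membrane, was 15.3 in SKN and 22.3 in SKUT1, against 0.0601 in RKN and 0.0329 in SKLMS1. NMNAT2, an enzyme of NAD synthesis, was 25.5 in SKN and 6.998 in SKUT1, against 0.0791 and 0.105. The glycosyltransferase genes GALNT12 and ST3GAL1 were 10.4 and 15.0 in SKN and 9.67 and 17.0 in SKUT1, against 0.609 and 1.79 in RKN and 0.603 and 2.70 in SKLMS1. TMEM200A, KIAA1549L, PID1 and NTM had gaps of 3.66, 3.46, 3.23 and 3.17. TMEM200A was the one of them with SKUT1 far above SKN, at 12.5 in SKN and 116 in SKUT1.

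A further 20 higher genes that the naming rule did not take, LTBP1 among them, had gaps of 2.06 to 3.03. They were TPBG, WNK4, TRIB2, BVES, SLFN12, CDK14, MAN1A1, SASH1, CLMP, RASSF8, FAM155A, FERMT3, FAM167A, FAR2, IFFO1, CYGB, IL7R and 2 unnamed loci. TPBG, a surface glycoprotein of trophoblast, led them with 43.1 in SKN and 79.6 in SKUT1, against 2.69 in RKN and 4.39 in SKLMS1. The last higher member was a microRNA gene, taken up with the short RNAs below.

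The 48 lower genes were of another make. Short RNAs (snoRNA, snRNA, scaRNA and microRNA genes), which a polyadenylated library measures poorly, made up 22 of them, against 1 of the 78 higher genes and 203 of all 13713 kept genes. Of these 22, 20 were listed at 0 in both SKN and SKUT1, the shallower libraries. Without short RNAs 26 lower genes remained, and without any gene listed at 0 in a line 20 remained of the 48 and 61 of the 78. The part of depth in these counts was not tested.

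Among the 26 other lower genes, FGFR4, COL9A2, MATN2, CSRP2 and COL1A1 are described above. CSRP2 was the most abundant lower gene in its weaker high line. It was the only member among the 59 LIM domain genes listed, of which 47 were kept. This is 2.13% of the 47, against 0.35% lower members of all kept genes.

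Some regulators lay on the lower side. NKX2-5, a homeobox factor of heart and spleen, was 0.112 in SKUT1 and listed at 0 in SKN, against 9.57 in RKN and 10.4 in SKLMS1. ZNF608, a zinc finger gene, was 1.74 in SKN and 0.113 in SKUT1, against 12.6 in RKN and 13.4 in SKLMS1. RASL11A, a small GTPase of the RAS type, was 0.559 in SKN and 0.947 in SKUT1, against 10.7 in RKN and 20.04 in SKLMS1. For NKX2-5 and ZNF608 RKN and SKLMS1 were nearly level.

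Structural and secreted products followed. TMSB15A and TMSB15B, which encode the same thymosin and may share reads, were 1.03 and 2.57 in SKN and 0.267 and 1.87 in SKUT1, against 10.9 and 25.0 in RKN and 31.6 and 30.4 in SKLMS1. INA, a neuronal intermediate filament, was 0.634 in SKUT1 and listed at 0 in SKN, against 17.0 in RKN and 10.2 in SKLMS1. C1QL4, a secreted C1q-like protein, was 0.593 in SKN and 0.0220 in SKUT1, against 14.8 in RKN and 21.5 in SKLMS1. GALNT14, which starts O-linked glycosylation, was 0.934 in SKN and 0.0177 in SKUT1, against 12.1 in RKN and 42.2 in SKLMS1; its relative GALNT12 was a higher gene. SCARA3, a scavenger receptor, was 1.83 in SKN and 4.97 in SKUT1, against 29.5 in RKN and 38.8 in SKLMS1.

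Carriers and transporters closed the list. APOC1, a lipoprotein component, was 0.155 in SKN and 0.161 in SKUT1, against 5.48 in RKN and 7.78 in SKLMS1. Both pairs were close to level for APOC1. The monoamine transporter gene SLC29A4 was 1.06 in SKN and 0.563 in SKUT1, against 12.6 in RKN and 8.56 in SKLMS1. CNFN and AP1M2 entered with 1 high line in the pair, since CNFN was 0.245 in SKN and 0.508 in SKUT1, against 24.3 in RKN and 5.96 in SKLMS1. AP1M2 was 0.102 in SKN and 0.0264 in SKUT1, against 3.57 in RKN and 30.5 in SKLMS1. NDUFC2-KCTD14, a readthrough of neighbouring genes whose reads overlap theirs, was 1.04 in SKUT1 and listed at 0 in SKN, against 18.3 in RKN and 11.4 in SKLMS1. The lower genes outside the naming rule were TM4SF18, AIF1L, RTN4R, LPPR3 and 1 unnamed locus, with gaps of 2.16 to 3.44. TM4SF18 and LPPR3 were listed at 0 in both SKN and SKUT1.

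The lines of a pair also differed from each other. Over the 77 higher genes that are not short RNAs, SKN and SKUT1 were a median of 1.08 apart on the log2 scale and RKN and SKLMS1 0.44, against 0.64 and 0.58 over all kept genes. The rule chose these genes for low values in RKN and SKLMS1, both under an FPKM of 1 for 39 of the 77, where the added 1 narrows a difference, so nothing is read from that contrast. SKUT1 exceeded SKN for 49 of the 77, and for 6921 of all 13713 kept genes. Among the 77, SKUT1 exceeded SKN by 4-fold or more for 14. SKN exceeded SKUT1 by 4-fold or more for 2, IL33 and ITGA6. The all-gene share at 4-fold was not counted, so nothing is read from the 14 and the 2. The 14 included ELN (6.10 on the log2 scale), ITGBL1 (5.27), FST (5.18), GREM1 (4.08) and PTX3 (4.03). The gap was wider than the difference inside either pair for 64 of the 77 higher and 24 of the 26 lower genes. As the rule chose these genes for a wide gap, this count follows largely from the choice and nothing is read from it. Over those 26 lower genes SKN and SKUT1 were a median of 0.42 apart and RKN and SKLMS1 0.57. Both SKN and SKUT1 were under an FPKM of 1 for 16 of the 26, so nothing is read from that contrast either.

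**Figure D4:**
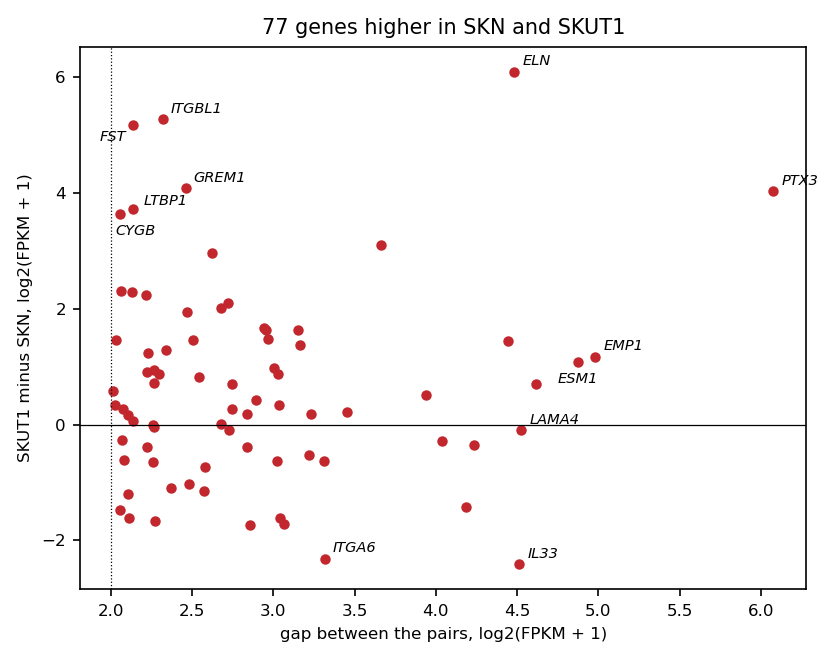
Difference of SKUT1 minus SKN (vertical axis) against the gap between the pairs (horizontal axis), both on log2(FPKM + 1), for the 77 higher genes that are not short RNAs; each point is a gene and the dotted line is the gap of 2. ELN, ITGBL1 and FST lie more than 5 above 0, IL33 and ITGA6 more than 2 below it, and LAMA4 close to it.

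The threshold cut through genes of similar value. Just inside it on the higher side lay ADAMTS6, CDC42EP2 and PXDN, with gaps of 2.02 to 2.03. Just outside lay TMEM87B (1.997), HMGA1 (1.997) and MFGE8 (1.98). HMGA1, an architectural chromatin protein, was 653 in SKN and 190.2 in SKUT1, against 29.9 in RKN and 46.9 in SKLMS1. On the lower side AP1M2, CNFN and SLC29A4 lay just inside, with gaps of 2.05 to 2.22, and ZNF300 (1.997), SOX4 (1.997) and RBPMS2 (1.96) just outside. SOX4, a developmental transcription factor, was 6.38 in SKN and 3.62 in SKUT1, against 28.4 in RKN and 34.2 in SKLMS1.

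By position, 76 higher and 47 lower genes were found in RefSeq. Chromosome 11 held 11 of the 76 higher genes (14.5%) and 5.84% of the kept genes with a position. They included CD44, CD59, FLI1, CASP4, PHLDA2, LTBP3, NTM and CDC42EP2. Chromosome 19, with 7.49% of the kept genes, held none of the higher genes and 5 of the lower. Chromosomes 16, 18, 20 and 21 also held none of the higher genes. Chromosome 1, with 10.1% of the kept genes, held 1 of the higher genes (1.32%) and 3 of the lower. No pair of members other than the snoRNA genes SNORA20 and SNORA29 stood next to each other in the order of kept genes. By type, 74 of the 78 higher genes (94.9%) and 25 of the 48 lower genes (52.1%) were protein-coding, against 92.1% of all kept genes.

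Outside the members, some gene families lay below in SKN and SKUT1 more often than above. Both SKN and SKUT1 lay below both other lines for 22 of 40 proliferation genes (55.0%, median difference of pair means -1.02) and above for none, where 16.6% of all kept genes lay below. The same held for 17 of 45 histone genes (37.8%, with none above), 36 of 101 respiratory chain genes (35.6%, with 5 above), 150 of 499 zinc finger genes (30.1%, with 19 above) and 15 of 51 DNA repair genes (29.4%, with 4 above). Among proliferation genes PCNA, the sliding clamp of replication, was 152 in SKN and 106 in SKUT1, against 345 in RKN and 378 in SKLMS1. The only member in these 5 lists was ZNF608. SKN and SKUT1 were the shallower libraries, and the part of depth in these counts was not tested. Ribosomal protein genes lay above in 5 and below in 5 of 78. On a scale of equal column sums the all-gene shares themselves became 25.3% below and 10.6% above, against 16.6% and 17.1% as deposited, and the counts below became 28 for proliferation, 20 for histones, 56 for the respiratory chain, 228 for zinc fingers and 21 for DNA repair.

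**Figure D5:**
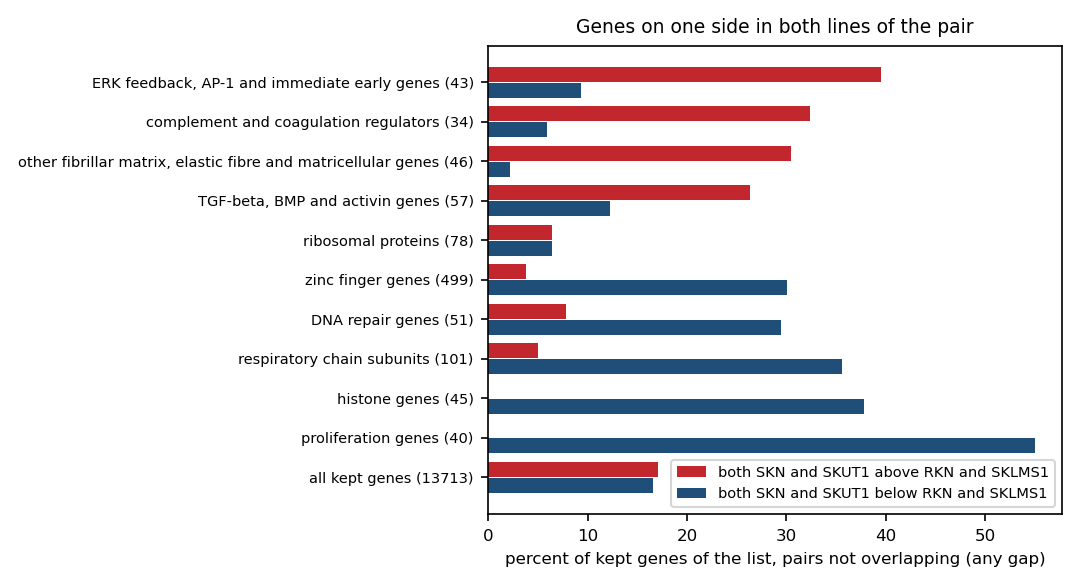
Percent of the kept genes of each list for which both SKN and SKUT1 lay above (red) or below (blue) both RKN and SKLMS1, by any amount, with all kept genes at the bottom; the number of kept genes stands in brackets. The ERK feedback and matrix lists have more genes above than below, the proliferation, histone and respiratory chain lists the reverse.

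On the higher side the same count was 17 of 43 for the ERK feedback list (39.5%), 12 of 26 for imprinted and oncofetal genes (46.2%), 12 of 30 for collagens (40.0%) and 9 of 27 for fibroblast and pericyte markers (33.3%, with none below). Among the imprinted genes at a gap of 1 the noncoding MEG3 was 38.6 in SKN and 8.35 in SKUT1, against 3.37 in SKLMS1 and a listed 0 in RKN. Of 40 smooth muscle contractile genes 7 lay above (17.5%), close to the 17.1% of all kept genes, and 2 below. Of the 71 lists, 39 held at least 1 member, and 49 of the 78 higher and 14 of the 48 lower genes were in a list.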

How the data were processed

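Polyadenylated RNA of 4 untreated lines was measured, 1 library per line. The deposited values are FPKM per gene symbol, made by the authors; per the submitters' processing notes, STAR, Cufflinks and the genome build hg19 were used. For their versions, the annotation, the strand setting and any filter, nothing is given in the sources used here. Of 23610 rows, 28 with a symbol turned into a date number and 5 with spreadsheet errors (8 cells) were left out, and 23577 genes remained. Values of 0 were kept as listed.

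Values were compared as log2(FPKM + 1), so fold sizes of low genes are understated. A member had a gap of 2 or more between pairs and FPKM 1 or more in any line. As each line has 1 library, nothing was tested and no error was computed. The members and the 71 gene lists were chosen with earlier results of these data known, and list counts are descriptions. The genes named were IL33, CSRP2, the 20 widest gaps in each direction with FPKM 10 or more in both higher lines, up to 5 members per list, neighbouring members and the 3 nearest the threshold on each side; short RNAs and unnamed loci were counted only, and exceptions are marked. Some members and lists are not reported here. Relative depth was the most frequent ratio of a line to RKN over genes above 0 in both (178 to 214 genes share it). Gene type, chromosome and promoters came from RefSeq GRCh38.p14 by symbol (97.7% of kept symbols matched, 123 of 126 members), for order and sequence only. The code was run on simulated data, with 200 genes shifted by 3.5 on the log2 scale and a noise SD of 0.3. Real lines of a pair differed by medians of 0.64 and 0.58 over all kept genes. The simulation therefore checks the code only and does not show how well real members are recovered. Alternatives were other pseudocounts, scalings, filters and gaps, and each line left out. Python 3.11.15, pandas 2.3.3 and numpy 2.4.6 were used.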

Additional observations from a re-analysis of the deposited data

How the results depend on the processing

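Of the 78 higher and 48 lower genes, median-of-ratios scaling kept all 126. This scaling changed the values little, so the result says little. The median difference of pair means over the kept genes moved from 0.0155 to 0.0239. A gap of 2 already needs FPKM above 1 in the higher lines, so having no filter on low values kept all 126 by construction. An FPKM minimum of 5 kept 78 and 47, and quantile normalization kept 73 and 48 among 76 and 52 called. The counts depended on the pseudocount, 171 and 132 at 0.1 and 26 and 12 at 5, and by construction on the gap, 315 and 186 at 1 and 27 and 18 at 3. On the TPM scale 85 were higher and 78 lower, of which 70 and 48 were the genes reported; CD44, MMP14, KRT18, PHLDA2, PXDN, CDC42EP2 and HOXD-AS2 had a gap under 2, at 1.77 to 1.95. Leaving out genes listed at 0 gave 61 and 20, and leaving out short RNAs, an alternative chosen after the data were seen, gave 77 and 26. Leaving out 1 line removes a condition and keeps all members, so the counts grew: 157 to 725 higher and 151 to 282 lower, with 725 and 209 without SKN, 318 and 151 without SKUT1, 157 and 261 without RKN and 377 and 282 without SKLMS1. Of the 78 members named by the rule, none changed direction under TPM, median-of-ratios or quantile scaling. TPM and median-of-ratios scaling multiply each column by 1 factor, and these factors differed too little between lines to reverse a gap of 2. Another pseudocount or a line left out cannot reverse a direction. Apart from quantile normalization, these alternatives therefore say nothing about direction. At a pseudocount of 5, 53 of the 78 had a gap under 2. Depth is known only as a ratio between lines, and there are no replicates. No paired analysis was possible because each line has 1 library and no replicate numbers.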

Other observations

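The short RNAs among the members gave values that look like small whole numbers of reads. For 21 of the 22 lower short RNAs, the ratio of SKLMS1 to RKN divided by the most frequent ratio between these lines (1.095) lay within 0.2% of a ratio of whole numbers up to 12, and for 20 of them of whole numbers up to 6. SNORD88A and MIR590 had identical values, 0 listed in SKN and SKUT1, 36.9 in RKN and 40.4 in SKLMS1, a ratio of 1 to 1. SNORD46, named after its values were seen, was listed at 0 in SKN and SKUT1 and was 138 in RKN and 75.4 in SKLMS1, a ratio of 2 to 1. The smallest whole numbers that give a ratio are a lower limit on reads, since multiples of them give the same ratio. Over all 203 kept short RNAs, 94 were listed at 0 in SKN and 145 in SKUT1, against 53 in RKN and 74 in SKLMS1.

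MIR658 was the 1 short RNA among the higher genes and had the widest gap of all members, 6.34, with 80.1 in SKN and 117 in SKUT1 and 0 listed in RKN and SKLMS1. The library kit selects polyadenylated RNA, so the value describes reads over the short annotated gene and not a mature microRNA.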
